A study of Mus musculus with 3 samples.

Results

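Amino acid and peptide transporters were described as a set of 10 genes, named by symbol, among the 55536 gene entries of the deposited tables. The members are Slc3a2, the heavy chain that several transporters share, 5 of its light chains (Slc7a5, Slc7a6, Slc7a7, Slc7a8 and Slc7a11), the neutral amino acid carriers Slc38a2 and Slc1a5, and the endolysosomal peptide and histidine carriers Slc15a3 and Slc15a4. All 10 symbols matched 1 gene each, and every member had counts in every library. The libraries were made from polyadenylated RNA of C57BL/6J mouse macrophages grown from bone marrow and given 100 ng/mL of a stimulus for 480 minutes. The sample descriptions call the stimulus Lipid A, the part of bacterial lipopolysaccharide that activates macrophages, whereas the treatment fields call it lipoprotein A, and the files do not settle which was used. The 3 biological replicates carry separate biosample names but 1 donor name, and sex and age were not collected. They form 1 group and no unstimulated sample belongs to it, so levels and their spread were measured, and no response to the stimulus.

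Amino acids cross membranes through carriers of the SLC families. In the heteromeric transporters a single-span glycoprotein, Slc3a2 (the CD98 heavy chain), brings a multi-span light chain to the cell surface through a disulfide bond, and the light chain sets which amino acids are exchanged. Leucine, arginine, glutamine and cystine brought in by such carriers feed protein synthesis, nitric oxide and polyamine synthesis, mTORC1 signalling and glutathione synthesis, all of which are known to matter in activated macrophages. Slc15a3 and Slc15a4 sit in endolysosomes, where they move histidine and small peptides, among them bacterial muramyl peptides, with protons, and Slc15a4 is known to be needed for signalling by endosomal Toll-like receptors.

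The libraries of replicates 1, 2 and 3 held 26589042, 34344922 and 48356527 expected counts on genes. All 8 macrophage markers were detected, meaning at least 1 TPM (a level per transcript length, scaled to the same total in every library) in 3 of 3 libraries, with summed levels from 16752 to 21243 TPM. The markers of B cells, T cells, dendritic cells and fibroblasts, 3 of each, were below that level in at least 1 library, and Cd3d and Cd3g had no counts. Replicate 2 stood apart. All 6 neutrophil markers were highest there, with a summed level of 416 TPM against 27.3 and 23.9 TPM in replicates 1 and 3. Nearly all of the 416 TPM came from S100a9 at 237, S100a8 at 128 and Ngp at 43.3 TPM. Mmp8 was only 1.85-fold apart between libraries. The defining marker Ly6g reached only 2 counts in replicate 2 and Retnlg 1 count, and neither had counts elsewhere. Of the 4 osteoclast markers Acp5 carried nearly all of the sum, with 209 TPM in replicate 2 against 79.6 and 103 TPM in replicates 1 and 3, whereas Ctsk was highest in replicate 3, at 3.61 TPM, and Calcr had no counts in replicates 2 and 3. Of the 3 erythroid and platelet markers, the platelet chemokine Pf4 stood at 859 TPM in replicate 2 against 228 and 223 TPM in replicates 1 and 3. Hbb-bs and Hba-a1 went the other way, with counts in replicate 3 alone, at 0.09 and 0.43 TPM. The share of counts on ribosomal RNA genes was 2.78%, 1.83% and 6.66% in replicates 1, 2 and 3. In RNA from whole cultures, fewer cells of a type and less RNA per cell cannot be told apart.

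Slc15a3 and Slc3a2 were far above the rest, and the levels of the 10 transporters covered 3 orders of magnitude. Together they summed to 1528, 1643 and 1500.4 TPM in replicates 1, 2 and 3, of which Slc15a3 alone made 68.0% ± 2.62 (SD, n = 3). The sum of replicate 2 includes 60.1 TPM of Slc15a4-211, a transcript with 4.2 counts there that is described below. The median of the members was 25.9 TPM, against 8.59 TPM over the 12414 genes with a mean of at least 10 counts and 4.63 TPM over the 14577 protein-coding genes with counts. It is the midpoint of ranks 5 and 6, Slc7a7 at 47.6 TPM and Slc38a2 at 4.33 TPM. From protein-coding transcripts these ranks fell to Slc15a4 at 21.8 TPM and Slc38a2 at 4.10 TPM, with a lower midpoint. All members but Slc7a6, 9 of 10, reached 1 TPM in every library, where 63.4% of protein-coding genes with counts and 48.5% of all genes with counts did. The other 5 members averaged under 5 TPM, and the 5 most abundant over 40 TPM, though Slc15a4 averaged 32.8 TPM without replicate 2 and 25.2 TPM in the second set of deposited transcript tables.

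**Figure D1:**
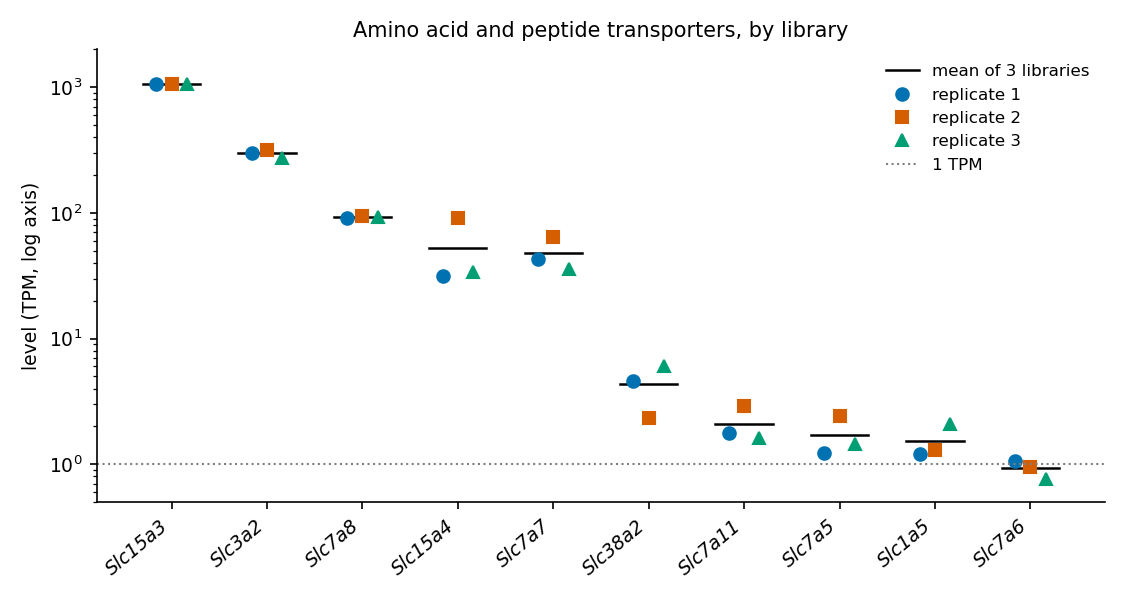
Level of each transporter in TPM on a log axis, ordered by mean; points are the 3 libraries, black lines their means, and the dotted line marks 1 TPM. Slc15a3 lies above 1000 TPM in every library, Slc38a2 and the 4 genes to its right lie under 10 TPM, and replicate 2 is highest for Slc15a4 and Slc7a7.

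The heavy chain Slc3a2 (chr19:8706882-8723369, minus strand, in mm10 as all gene positions here) had 300.3, 316 and 275 TPM in replicates 1, 2 and 3. Its mean of 297 ± 20.6 TPM (SD, n = 3) was above that of 96.4% of protein-coding genes with counts. The 3 libraries lay within 1.15-fold of each other, and replicate 3 was lowest. The counts behind these levels were 7792, 10810 and 13043.

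Slc7a8 (chr14:54722209-54781946, minus strand), the light chain for neutral amino acids also called LAT2, had 91.2, 93.9 and 92.7 TPM in replicates 1, 2 and 3. This was the most abundant of the 5 light chains, at 92.6 ± 1.32 TPM (SD, n = 3), and its libraries lay within 1.03-fold of each other. Slc7a7 (chr14:54369442-54417780, minus strand) exports arginine and lysine in exchange for neutral amino acids, and its human gene is mutated in lysinuric protein intolerance. It had 43.0, 63.7 and 36.0 TPM. Replicate 2 was the highest library for Slc7a7, and the mean was 47.6 ± 14.4 TPM (SD, n = 3).

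The remaining light chains were scarce. Slc7a11 (chr3:49892526-50443614, minus strand), the cystine and glutamate exchanger xCT, had 1.77, 2.91 and 1.62 TPM in replicates 1, 2 and 3, from 184, 372 and 247 counts. Slc7a5 (chr8:121881150-121907694, minus strand), the exchanger LAT1 that carries leucine and other large neutral amino acids, had 1.22, 2.43 and 1.44 TPM from 69, 185 and 149 counts. Both were highest in replicate 2. Slc7a6 (chr8:106168857-106198706, plus strand), the other exporter of cationic amino acids in this family, had 1.06, 0.96 and 0.76 TPM from 63, 77 and 83 counts. Its 3 levels straddled 1 TPM, with replicate 1 highest.

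All 5 light chains lay below Slc3a2 by the rule used for gene pairs, which asks for the same direction in 3 of 3 libraries and for a mean log2 difference over 2 SD. With 3 libraries an exact sign-flip test cannot go below a two-sided p of 0.25, so pairs were described by this rule and not by a p. On the scale of log2(TPM + 0.1), the difference from Slc3a2 was -1.68 ± 0.10 for Slc7a8 and -2.68 ± 0.33 for Slc7a7 (SD, n = 3). It was -7.12 ± 0.35 for Slc7a11, -7.43 ± 0.44 for Slc7a5 and -8.19 ± 0.16 for Slc7a6. Their 3 levels each made under 2% of the summed light chains in every library.

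The 5 light chains summed to 138, 164 and 133 TPM in replicates 1, 2 and 3, a ratio to Slc3a2 of 0.460, 0.519 and 0.482. The heavy chain exceeded its summed light chains in 3 of 3 libraries, by a mean ratio of 2.06 ± 0.123 (SD, n = 3). Of the summed light chain level, Slc7a8 made 64.4% ± 6.48 and Slc7a7 made 32.4% ± 5.96 (SD, n = 3). The share of Slc7a7 was highest in replicate 2, at 38.9%, against 31.1% and 27.2% in replicates 1 and 3. Another light chain that pairs with Slc3a2, Slc7a10, had no counts in any library, and 3 counts would have made at most 0.219 TPM.

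Within transporter classes, 4 of the 5 pairs were apart by the same rule. The log2 difference was -5.75 ± 0.47 for Slc7a5 against Slc7a8 and 5.51 ± 0.36 for Slc7a7 against Slc7a6 (SD, n = 3). Between the cystine exchanger Slc7a11 and Slc7a5 the log2 difference was 0.30 ± 0.18. Slc7a11 was higher in 3 of 3 libraries, but the mean stayed within 2 SD. In the second tables, a quantification of the same libraries without an alignment file, the same difference was 0.58 ± 0.14 and met the rule.

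**Figure D2:**
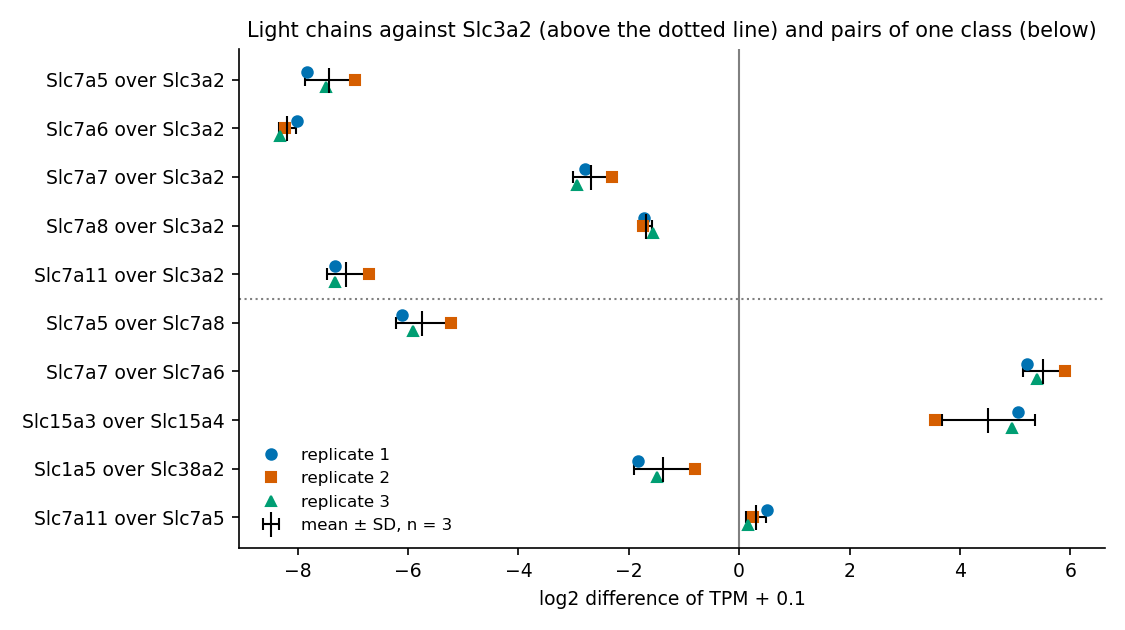
Log2 difference of TPM + 0.1 for each fixed pair of transporters, first-named over second-named gene; points are libraries, bars are mean ± SD over 3 libraries. All 5 light chains lie left of 0, and Slc7a11 over Slc7a5 lies closest to 0 of the 10 pairs, at 0.30 ± 0.18.

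Slc38a2 (chr15:96687392-96699730, minus strand), the sodium-coupled carrier SNAT2 for small neutral amino acids, had 4.56, 2.33 and 6.10 TPM in replicates 1, 2 and 3. These rested on 355, 244 and 870 counts. Replicate 2 was the lowest library here, the reverse of Slc7a7, Slc7a11 and Slc7a5. Slc1a5 (chr7:16781340-16798274, plus strand), the glutamine and neutral amino acid exchanger ASCT2, had 1.21, 1.30 and 2.11 TPM from 49, 76 and 124 counts. Replicate 3 was the highest library for Slc1a5, and its excess was smaller in protein-coding transcripts alone, which gave 0.81, 1.30 and 1.33 TPM. The log2 difference of Slc1a5 from Slc38a2 was -1.37 ± 0.53 (SD, n = 3), which met the rule. Without replicate 3 it was -1.31 ± 0.73 (SD, n = 2) and no longer met the rule.

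Slc15a3 (chr19:10839727-10859362, plus strand) was the most abundant member and the steadiest in deposited TPM, with 1052, 1068 and 1051 TPM in replicates 1, 2 and 3. Its mean of 1057 ± 9.66 TPM (SD, n = 3) exceeded that of 99.2% of protein-coding genes with counts, and the libraries lay within 1.02-fold. A smaller ratio of highest to lowest TPM was found in 0.226% of the 12414 genes with a mean of at least 10 counts. On counts the gene was less even. After TMM scaling, which adjusts for depth and composition and is given here as CPM, it had 1533, 1445 and 1523 CPM, with replicate 2 lowest. The second tables gave 757, 993 and 872 TPM, a 1.31-fold range.

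Slc15a4 (chr5:127595664-127632897, minus strand) appeared to be the most uneven member, with 31.6, 91.3 and 33.9 TPM in replicates 1, 2 and 3. Replicate 2 was 2.89-fold above replicate 1. The gene's expected counts did not follow: they were 1328, 1471 and 2136, or 51.9, 40.3 and 45.2 CPM after TMM scaling, a 1.29-fold range with replicate 2 lowest. A transcript of 166 bases, Slc15a4-211, held 65.7% of the gene's TPM in replicate 2. It did so with 4.2 expected counts, which the deposited table gives a posterior SD of 1.79. Its effective length, the number of positions at which a fragment can start, was 2.96 bases in that library, so that these few counts made 60.1 TPM. The same transcript had no counts in replicate 1, and 0.73 counts and 6.10 TPM in replicate 3. The second tables gave it 0, 0 and 2.70 counts.

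The sequence of Slc15a4-211 is shown because it carries this value. Its first 148 bases are bases 992 to 1139 of the coding transcript Slc15a4-201, which has 2732 bases, and its last 18 are bases 1203 to 1220, with 63 bases of Slc15a4-201 left out between them. A fragment must therefore cross that join to differ from the coding transcript. The sequence is given 5′ to 3′ from the GENCODE M21 transcripts (chr5:127603781-127604607, minus strand, 3 exons), with the last 18 bases in capitals.
Slc15a4-211: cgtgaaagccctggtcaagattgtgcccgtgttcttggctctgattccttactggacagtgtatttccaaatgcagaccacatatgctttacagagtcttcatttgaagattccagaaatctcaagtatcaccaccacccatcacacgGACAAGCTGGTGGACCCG

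Without Slc15a4-211 the gene's TPM was 31.6, 31.3 and 27.8 in replicates 1, 2 and 3. The value of replicate 2 still held 5.48 TPM of Slc15a4-209, a transcript of 200 bases with 1.2 counts there. Transcripts of at least 300 bases gave 31.6, 25.8 and 27.8 TPM, with replicate 2 lowest. Transcripts annotated as protein-coding gave 23.2, 21.3 and 20.98 TPM, and the second tables gave 22.9, 25.99 and 26.7 TPM. In each of these measures the libraries were under 1.5-fold apart, and replicate 2 was not above both other libraries. Of the 12414 genes, 123 (0.991%) had TPM at least 2-fold apart with TMM-scaled counts under 1.5-fold apart, and Slc15a4 was the member among them. In 10 of these 123 genes a transcript under 300 bases held over 50% of the gene's TPM in some library. Among all 12414 genes, 48 (0.387%) had such a transcript. Slc15a3 was above Slc15a4 by 4.52 ± 0.84 on the log2 scale, and by 5.51 ± 0.08 from protein-coding transcripts alone (SD, n = 3).

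**Figure D3:**
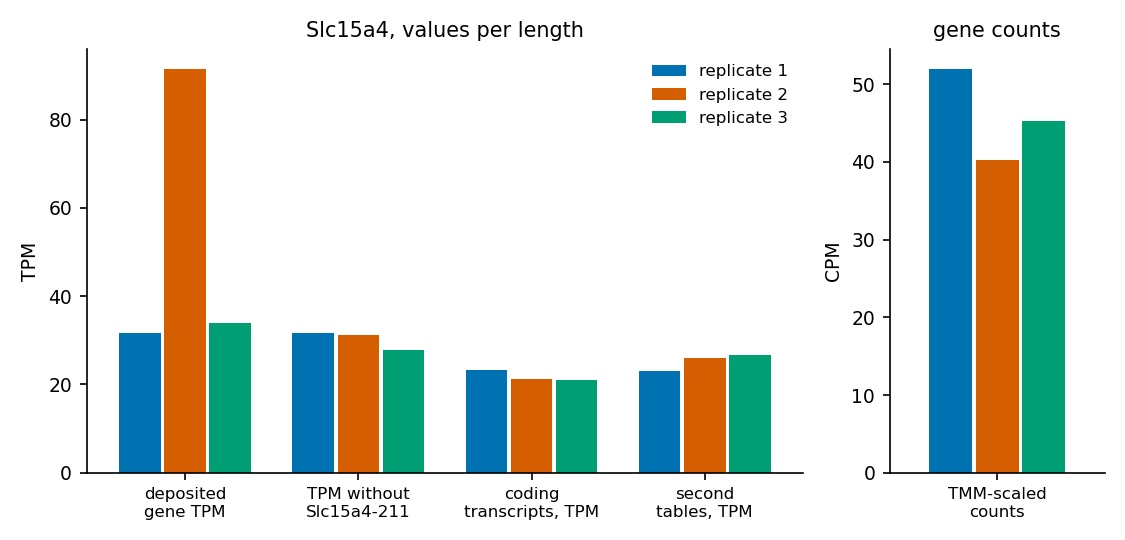
Slc15a4 in the 3 libraries as deposited gene TPM, as TPM without the 166-base transcript Slc15a4-211, as TPM of protein-coding transcripts and as TPM of the second tables (left axis), and as TMM-scaled gene counts in CPM (right axis). The bar at 91.3 TPM in replicate 2 has no counterpart in the other 4 measures.

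In the order of mean TPM, 3 of the 9 neighbouring pairs were apart: Slc15a3 over Slc3a2 (log2 difference 1.83 ± 0.09), Slc3a2 over Slc7a8 (1.68 ± 0.10) and Slc7a7 over Slc38a2 (3.49 ± 1.11; SD, n = 3). The places of Slc15a4 and Slc7a7, ranks 4 and 5 in mean TPM, were exchanged in replicates 1 and 3, in the second tables and in protein-coding transcripts. From protein-coding transcripts Slc7a7 was 1.08 ± 0.43 above Slc15a4 on the log2 scale, and 5 neighbouring pairs were apart. Among the 5 scarce members no neighbouring pair met the rule in deposited TPM. Leaving out replicate 2 separated Slc38a2 from Slc7a11, at 1.58 ± 0.38 on the log2 scale (SD, n = 2), since Slc38a2 was lower than Slc7a11 in that library alone.

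The libraries differed by more than counting error in 7 of the 10 members, where 70.9% of the 12414 genes tested did so, a share near that of the members. The test was a chi-square test on TMM-scaled expected counts with 2 degrees of freedom, Benjamini-Hochberg adjusted over all genes tested, with a threshold of 0.05. It compares these libraries, which may differ for technical reasons, and no conditions. Slc7a7 had the strongest signal (adjusted p = 3.0e-69), with 49.6, 71.0 and 42.6 CPM after TMM scaling in replicates 1, 2 and 3. Slc38a2 followed (adjusted p = 8.8e-46), at 13.9, 6.68 and 18.4 CPM. The 3 members that did not pass were Slc7a8 (adjusted p = 0.068), Slc1a5 (adjusted p = 0.127) and Slc7a6 (adjusted p = 0.157). Slc15a3 passed (adjusted p = 1.1e-23) with libraries only 1.06-fold apart in scaled counts, at 39226 to 71931 counts per library.

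By size, TPM was at least 1.5-fold apart between libraries in 6 members (Slc15a4, Slc38a2, Slc7a5, Slc7a11, Slc7a7 and Slc1a5), against 42.1% of all genes tested. TMM-scaled counts were that far apart in 4 members, against 37.9% of genes, since Slc15a4 and Slc1a5 then stayed at 1.29-fold and 1.37-fold. The highest TPM was in replicate 2 for 7 members (45.2% of genes), in replicate 3 for 2 (24.2%) and in replicate 1 for 1 (30.7%). In TMM-scaled counts it was replicate 2 for 3 members (38.5% of genes), replicate 3 for 3 (27.7%) and replicate 1 for 4 (33.8%). In replicate 2 the neutrophil markers summed to 416 TPM and the osteoclast marker Acp5 stood at 209 TPM, the highest of the 3 libraries for each, and their part in the levels of Slc7a7, Slc7a11, Slc7a5 and Slc38a2 was not tested.

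Without replicate 2 the count of members at least 1.5-fold apart in TPM dropped to 1, Slc1a5, and 18.2% of genes were that far apart. Still, 5 members (Slc3a2, Slc7a7, Slc7a11, Slc38a2 and Slc15a4) differed by more than counting error between replicates 1 and 3, where 42.7% of genes did. Slc7a5 and Slc15a3 no longer passed the threshold. Slc7a7 stood 1.19-fold apart between these libraries and Slc38a2 1.34-fold.

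By shares averaged over the 3 libraries, both quantifications put the largest share of TPM on the same transcript in 10 of 10 members, where 88.6% of 10617 genes with 2 or more transcripts did. Compared library by library it was the same in 8 of 10, the exceptions being Slc15a4 in replicate 2 and Slc7a6 in replicate 3. For 5 members that transcript held over 90% of the gene's TPM on average in the alignment-based tables: Slc7a5-201, Slc7a6-201, Slc7a8-201, Slc15a3-201 and Slc38a2-201. Over all genes neither of these counts was computed, so neither is read as particular to the members. For Slc7a6 the size of the share was uncertain, at 90.3% ± 2.55 in the alignment-based tables and 47.8% ± 19.6 in the second tables (SD, n = 3). Slc3a2-201 held 78.5%, 77.4% and 82.1% of Slc3a2 in replicates 1, 2 and 3. A shorter coding transcript, Slc3a2-207, held 18.8%, 20.1% and 15.1%, so the libraries differed by about 5 percentage points.

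In the alignment-based tables Slc7a11 divided between a transcript of 9223 bases, Slc7a11-201, and one of 2419 bases, Slc7a11-205. By TPM the longer one held 56.6%, 48.0% and 38.3% in replicates 1, 2 and 3, and the shorter one 43.4%, 50.9% and 61.7%. The longer one led in replicate 1 and the shorter one in replicates 2 and 3. By counts the longer one led in every library, with 155, 295 and 178 counts against 28.7, 74.6 and 68.6 counts for the shorter. The order of the pair thus differed between counts and levels per length in replicates 2 and 3. In the second tables another transcript, Slc7a11-202, annotated as a retained intron, held 26.1%, 5.70% and 14.4% of the gene's TPM.

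The level of Slc7a7 was spread over coding transcripts with different annotated starts. Slc7a7-201 held 53.4%, 43.2% and 48.4% of its TPM in replicates 1, 2 and 3, Slc7a7-202 held 23.2%, 35.8% and 31.8%, and Slc7a7-209 held 11.0%, 11.1% and 11.1%. The annotated first base of Slc7a7-202 lies upstream of that of Slc7a7-201, and that of Slc7a7-209 lies further upstream. In replicate 2, where Slc7a7 was highest, Slc7a7-202 reached 22.8 TPM, against 9.97 and 11.5 TPM in replicates 1 and 3. Slc7a7-201 reached 27.5 TPM there, against 22.9 and 17.4 TPM. In Slc15a4 the transcript Slc15a4-205, annotated as subject to nonsense-mediated decay, had 331, 248 and 456 counts, and the second tables gave it 340, 65.2 and 197 counts.

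**Figure D4:**
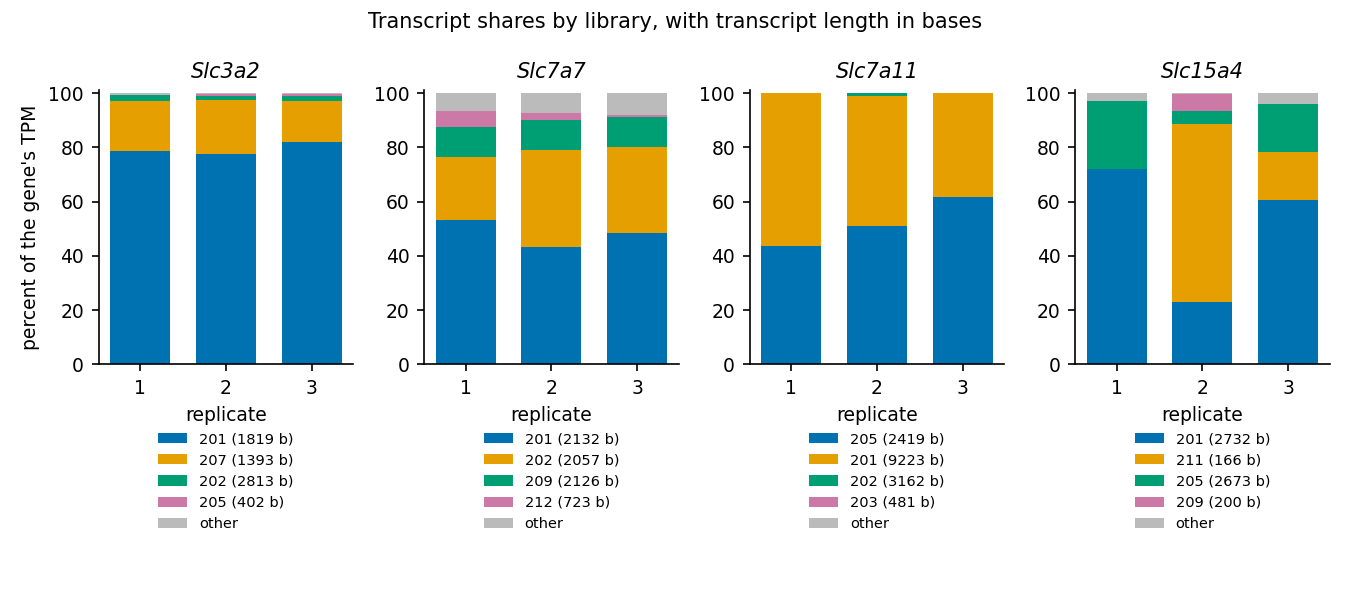
Percent of each gene's TPM on its transcripts in the 3 libraries for Slc3a2, Slc7a7, Slc7a11 and Slc15a4, with transcript lengths in bases; grey is the sum of all other transcripts. Slc15a4-211 takes 65.7% in replicate 2, and Slc7a7-202 takes its largest share, 35.8%, in the same library.

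The 3 RefSeq promoter windows that begin nearest the starts of Slc7a7-201, Slc7a7-202 and Slc7a7-209 are shown because these starts share the gene's reads. Each has 250 bases before and 50 after the RefSeq first base (GRCm38.p6, minus strand), 5′ to 3′, with the 50 transcribed bases in capitals. The windows are chr14:54409423-54409722, chr14:54410154-54410453 and chr14:54417630-54417929, and their RefSeq first bases lie 12 bases upstream, 13 bases downstream and 0 bases from the GENCODE starts of the 3 transcripts. The RefSeq first base of the second window lies closer, 1 base away, to the start of another transcript, Slc7a7-212. That transcript held 6.01%, 2.57% and 0.55% of the gene's TPM in replicates 1, 2 and 3.
Slc7a7-201 window: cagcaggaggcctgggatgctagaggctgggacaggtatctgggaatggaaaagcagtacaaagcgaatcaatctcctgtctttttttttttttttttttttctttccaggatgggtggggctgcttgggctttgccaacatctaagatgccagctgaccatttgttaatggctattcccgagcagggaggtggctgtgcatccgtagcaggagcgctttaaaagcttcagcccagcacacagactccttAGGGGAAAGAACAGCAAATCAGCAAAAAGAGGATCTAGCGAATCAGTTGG
Slc7a7-202 window: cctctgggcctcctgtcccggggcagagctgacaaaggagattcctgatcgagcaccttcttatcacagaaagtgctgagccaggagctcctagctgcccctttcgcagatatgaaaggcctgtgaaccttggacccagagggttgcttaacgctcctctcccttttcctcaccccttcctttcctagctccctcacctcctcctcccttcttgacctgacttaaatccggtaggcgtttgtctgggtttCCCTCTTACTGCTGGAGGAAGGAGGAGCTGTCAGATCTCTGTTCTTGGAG
Slc7a7-209 window: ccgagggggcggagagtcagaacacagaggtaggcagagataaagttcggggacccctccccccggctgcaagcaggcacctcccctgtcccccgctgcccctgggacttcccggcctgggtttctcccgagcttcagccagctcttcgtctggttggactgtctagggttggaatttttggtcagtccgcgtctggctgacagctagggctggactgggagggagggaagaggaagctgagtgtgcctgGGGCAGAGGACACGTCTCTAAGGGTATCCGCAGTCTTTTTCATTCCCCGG

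RefSeq promoter windows were matched for 7 of the 10 members, 12 windows in all. Slc15a3, Slc7a5 and Slc1a5 had no matched window, so they were not searched. They were searched on both strands for 4 motifs: the antioxidant response element (ARE) TGACNNNGC, bound by Nrf2, the CARE TGATGNAA, bound by ATF4 with C/EBP partners, the ISRE, bound by STAT and IRF factors and read as GAAA, any 2 bases and GAAA, and the kB motif, bound by NF-kB and read as GGG, any 5 bases and CC. Of 32851 windows of the same length, 12.4%, 3.97%, 3.44% and 50.8% held them. Among the 7 members, ARE letters were found in 2 (Slc7a6 and Slc38a2), CARE letters in 2 (Slc7a11 and Slc7a7), kB letters in 6 and ISRE letters in none. Counted per window, as the shares above are, 3 of the 12 held ARE, 3 CARE, 9 kB and 0 ISRE letters. Some windows of the same gene overlap. The ARE match of Slc7a6 and the CARE match TGATGCAA of Slc7a7 were thus each counted in 2 windows, as were kB matches of both genes. Where matches of different motifs overlapped, both were counted. The window of Slc7a11 held CARE letters on both strands, TGATGCAA from position -66 and TTGCATCA from position -47, counted from the RefSeq first base. It is shown for that pair of matches (chr3:50443564-50443863, GRCm38.p6, minus strand, 5′ to 3′), with the matches in capitals.
Slc7a11 window: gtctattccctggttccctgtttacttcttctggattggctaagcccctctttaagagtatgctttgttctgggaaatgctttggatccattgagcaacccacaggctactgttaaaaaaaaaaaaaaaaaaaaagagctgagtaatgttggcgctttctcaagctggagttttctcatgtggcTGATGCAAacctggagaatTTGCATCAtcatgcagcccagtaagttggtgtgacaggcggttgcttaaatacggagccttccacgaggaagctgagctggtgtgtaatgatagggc

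The other carriers of amino acids, peptides and nucleosides formed a list of 33 genes, of which 32 matched a symbol. Of these, 14 were detected, and the median level was 0.65 TPM. For this list and those below, the shares detected were 63.4% of protein-coding genes with counts and 48.5% of all genes with counts. Of the 17 tested, 15 differed by more than counting error between libraries and 11 by at least 1.5-fold in TPM, where 70.9% and 42.1% of all genes tested did. Without replicate 2 these counts were 13 and 3, against 42.7% and 18.2% of all genes. The highest were the taurine carrier Slc6a6 at 327 ± 20.2 TPM, the lysosomal nucleoside carrier Slc29a3 at 53.7 ± 12.3 TPM and the lysosomal glutamine carrier Slc38a7 at 29.3 ± 1.87 TPM (SD, n = 3). In mean TPM Slc6a6 exceeded 9 of the 10 members, though in replicate 2 it had 304 TPM, below the 316 TPM of Slc3a2. Slc7a9, Slc7a10, Slc15a1, Slc15a5 and Slc38a3 had no counts, and Slc7a14 had 1 count in replicate 3. A count of 3 would have made at most 0.148 TPM for Slc7a9 and 0.0593 TPM for Slc15a1.

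Genes that sense amino acids and signal through mTORC1 were detected in 18 of 18 cases and had a median level of 17.8 TPM. Their highest members belong to the lysosomal anchor of mTORC1: Rragc at 233 ± 10.6 TPM, Lamtor1 at 184 ± 5.06 TPM and Lamtor5 at 183 ± 28.4 TPM (SD, n = 3). The GTPase Rragd was lowest at 2.85 ± 0.598 TPM. In 16 of 18 the libraries differed by more than counting error, and in 6 by at least 1.5-fold in TPM (70.9% and 42.1% of all genes). Without replicate 2 these counts were 11 and 2 (42.7% and 18.2% of all genes).

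Of 9 genes that make or use glutathione, for which Slc7a11 supplies cystine, 5 were detected. The peroxidase Gpx1 had 384, 727 and 508 TPM in replicates 1, 2 and 3, and its relative Gpx4 averaged 233 ± 20.3 TPM (SD, n = 3). Gpx1 was highest in replicate 2, as were 45.2% of all genes tested. The reductase Gsr averaged 28.1 ± 7.54 TPM (SD, n = 3), and Ggt1 was lowest, with 1 count, in replicate 2. Of the 7 tested genes, 6 differed by more than counting error and 6 by at least 1.5-fold in TPM, against 70.9% and 42.1% of all genes. Both counts were 2 without replicate 2, against 42.7% and 18.2% of all genes.

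Of 10 genes of the ATF4 response to amino acid shortage, Ddit3 matched 2 gene identifiers and was left out, and 6 of the remaining 9 were detected. Cebpb, a partner of ATF4, had 128, 43.0 and 83.9 TPM in replicates 1, 2 and 3, lowest in replicate 2. The serine synthesis enzyme Psat1 went the other way, with 23.9, 31.0 and 14.95 TPM, highest in replicate 2. Atf4 itself averaged 80.7 ± 6.12 TPM and Psat1 23.3 ± 8.06 TPM (SD, n = 3). Over the list, 2, 3 and 4 genes were highest in replicates 1, 2 and 3. Ddit4 was lowest at 0.153 ± 0.0945 TPM. Of the 8 tested, 5 differed by more than counting error and 4 by at least 1.5-fold in TPM, against 70.9% and 42.1% of all genes, and 4 and 3 did without replicate 2, against 42.7% and 18.2%.

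The partners of the SLC15 carriers numbered 9, every one detected, and their median level was 79.3 TPM. Unc93b1, which carries Toll-like receptors to endosomes, averaged 498 ± 22.9 TPM, the transcription factor Irf5 241 ± 31.0 TPM and the receptor for single-stranded RNA Tlr7 203 ± 13.2 TPM (SD, n = 3). Nod2, the sensor of muramyl dipeptide, was lowest at 14.6 ± 1.94 TPM. All 9 differed by more than counting error and none by 1.5-fold in TPM, where 70.9% and 42.1% of all genes tested did. Without replicate 2, 7 of the 9 differed by more than counting error and none by 1.5-fold, where 42.7% and 18.2% of all genes did. Slc15a3 lay above every gene of this list. Slc15a4 lay below 7 of the 9, both at its deposited mean of 52.3 ± 33.9 TPM and at 21.8 ± 1.205 TPM from protein-coding transcripts (SD, n = 3).

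**Figure D5:**
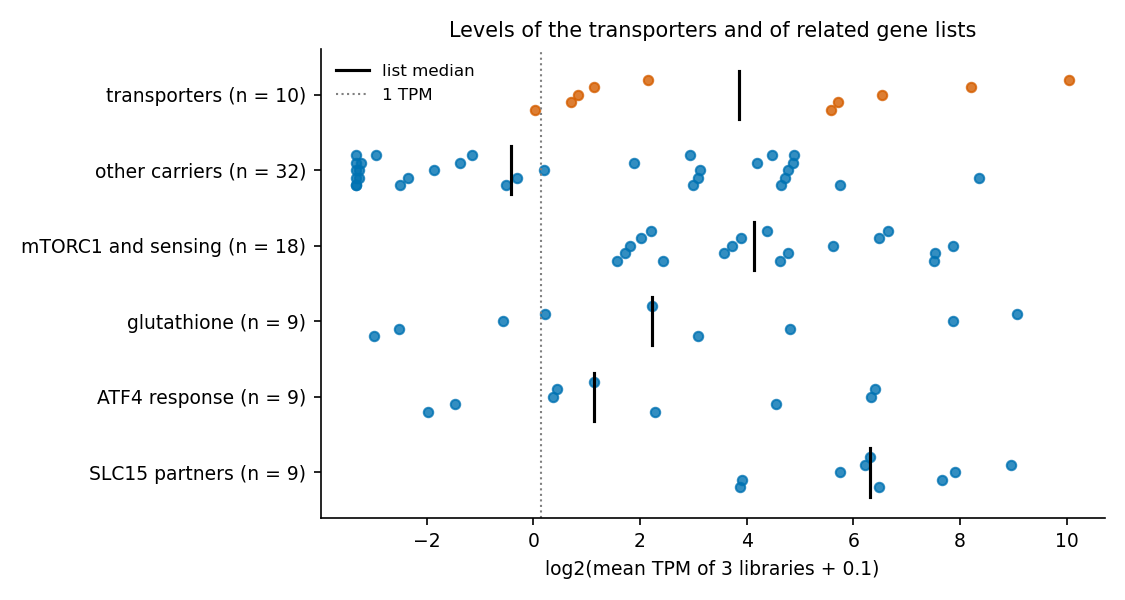
Levels of the 10 transporters (top row) and of the 5 related gene lists as log2(mean TPM of 3 libraries + 0.1); each point is a gene, black bars are list medians and the dotted line marks 1 TPM. The transporters lie between 0.927 and 1057 TPM, and the SLC15 partners lie between 14.6 and 498 TPM.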

How the data were processed

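Polyadenylated RNA of 3 macrophage libraries, 1 group, was sequenced from 1 µg of RNA with a size range of 250 to 400, per the labels. Reads were quantified on mm10 with GENCODE M21, per the readme deposited with each sample. Program and aligner: not given in the sources used here. Expected counts are fractional counts assigned by a model, TPM and FPKM are per length, and percent gives a transcript's share of its gene's TPM, all per the file headers. A second deposited transcript table per library gave estimated counts and TPM without an alignment file. These were summed per gene.

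Expected counts were rounded and scaled by TMM (edgeR 4.0.16), and those averaging 10 counts or more were tested by chi-square with Benjamini-Hochberg adjustment. The test was checked on counts simulated with counting error alone, the error it assumes. That check cannot show how the test behaves on replicates that vary by more. Pairs used log2(TPM + 0.1). Alternatives covered detection limits, pseudocounts, FPKM, DESeq2 1.42.0 size factors, count filters, the second tables, transcript classes and leaving out each library. Members, gene lists, pairs and rules were chosen with earlier results of these data known. All 10 members are named, and of each list the 3 highest and the lowest by mean TPM. Other genes, such as Slc7a10, were named after their values were seen. Effective lengths and posterior SDs of counts, each SD a score with no fixed range, are as deposited by the authors. Depth differs 1.82-fold between libraries, and the smallest mean count of a member, 74.3, limits its precision. Replicates with 1 donor name may be technical. Other software was scipy 1.17.1, pandas 2.3.3, numpy 2.4.6, matplotlib 3.10.9, R 4.3.3 and Python 3.11.15. No protein sequence was used here.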

Additional observations from a re-analysis of the deposited data

How the results depend on the processing

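Of 54 recomputed counts, 48 stayed within 1.5 times the reported one and 6 did not. With detection at 5 TPM, 5 members were detected, against 10 at 0.5 TPM and 7 at 1 TPM in the second tables. Neighbouring pairs apart numbered 5 in the second tables, 5 from protein-coding transcripts (an alternative chosen after seeing the data) and 4 to 5 when each library was left out. Members at least 1.5-fold apart in TPM numbered 1 to 6 and genes differing by more than counting error 5301 to 7427, against 8799 in all libraries, when each library was left out. In both, the lowest value came without replicate 2. The cause was not tested, beyond fewer libraries being compared. The count of light chains apart from Slc3a2 was 5 under every alternative. Of 80 pair values none changed sign. Of these, 3, all Slc7a11 over Slc7a5, newly met the pair rule: 0.58 in the second tables, 0.21 without replicate 1 and 0.38 without replicate 3. One, Slc1a5 over Slc38a2, no longer met it without replicate 3. Of 70 mean levels, 8 moved by more than 1 SD, in Slc3a2, Slc7a8 and Slc15a3. That of Slc15a4, 52.3 TPM, stayed within its SD of 33.9 yet moved by over 1.5 times, to 25.2 TPM in the second tables, 28.4 from transcripts of at least 300 bases, 21.8 from protein-coding ones and 32.8 without replicate 2. Without replicate 2, 4 of 10 counts over the related lists moved by over 1.5 times. At this depth, levels of the 5 scarce members rest on means of 74.3 to 490 counts. No paired analysis was possible because all libraries belong to 1 group.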
